A study of Mus musculus with 11 samples.

Results

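The transcripts described here are putative long intergenic noncoding RNAs that carry no gene name on the array and are known only by a stretch of the genome. They were selected as all probes, apart from control probes, whose name gives a chromosome, a start, an end and the letter F or R. This choice used names alone and no measured value. It found 16181 of 55681 probes, under 4607 of 36413 names, in 3540 intervals of the mouse genome (build mm9, the build of the files). Each probe is a 60-base oligonucleotide of a one-color mouse array, on which the brightness of each spot rises with the amount of labeled RNA bound.

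Total RNA of the descending aorta was measured in male C57BL/6 mice aged 20 months. In the nitrate group (n = 5 mice) NaNO3 was dissolved in the drinking water at 1 g/L for 8 weeks. In the control group (n = 6 mice) the labels give control as the agent and refer to samples analyzed earlier, and the study's methods describe NaCl at an equal concentration. Each array held the RNA of a different mouse, and the comparison was old nitrate against old control. The vessel was cleaned of surrounding fat, yet adipocyte genes were detected, as given further on.

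Long intergenic noncoding RNAs are transcribed from DNA between protein coding genes, often spliced and tailed like messenger RNA, but are not known to encode a protein. Some act in the nucleus as scaffolds for proteins or as regulators of nearby genes, and many have no known function. As a class they are less abundant and more tissue restricted than messenger RNAs.

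The probes that carry most of the results below are printed 5′ to 3′ as the files give them, each with the position and strand of the oligonucleotide in mm9. All 3 probes of 1 interval on chromosome 2, chr2:136327645-136341251_F, had lower signals in nitrate treated mice. They lie side by side and do not overlap, so no base is in capitals.
chr2:136340651-136340710 (+): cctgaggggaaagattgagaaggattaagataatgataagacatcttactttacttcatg
chr2:136340890-136340949 (+): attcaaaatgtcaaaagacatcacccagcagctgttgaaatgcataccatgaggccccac
chr2:136340980-136341039 (+): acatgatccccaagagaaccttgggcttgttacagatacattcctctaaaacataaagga

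Another 3 probes belong to a pair of neighboring intervals on chromosome 10, chr10:96098058-96098623_F and chr10:96103732-96103867_F, and were lower as well. A further probe, on chromosome 11, gave the smallest P value of all these transcripts and was higher. Capitals mark runs of A at the 3′ end.
chr10:96098468-96098527 (+): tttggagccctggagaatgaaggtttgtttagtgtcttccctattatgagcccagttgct
chr10:96098532-96098591 (+): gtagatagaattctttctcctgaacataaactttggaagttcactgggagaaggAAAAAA
chr10:96103807-96103866 (+): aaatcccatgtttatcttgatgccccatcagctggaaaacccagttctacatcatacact
chr11:6428407-6428466 (+): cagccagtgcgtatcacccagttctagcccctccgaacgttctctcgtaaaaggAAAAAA

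A pair of probes from overlapping intervals on chromosome 5 was higher with nitrate. Capitals mark the longest run that occurs 2 times within the same oligonucleotide, 19 bases in the upper and 23 bases in the lower probe. The pair shares a run of 56 bases, so both read largely the same sequence and count as 1 observation.
chr5:22890040-22890099 (-): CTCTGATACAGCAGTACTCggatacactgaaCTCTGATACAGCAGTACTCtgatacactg
chr5:22890323-22890382 (-): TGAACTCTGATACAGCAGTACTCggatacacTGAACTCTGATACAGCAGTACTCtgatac

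The most variable probes came from a different region of chromosome 5, where stretches of sequence recur in separate intervals. Capitals mark the bases at which the copies differ, counted from 1 at the 5′ end, which are C42T between the upper pair and G1C and T28C between the lower pair. Signals of these copies cannot be assigned to 1 interval with certainty.
chr5:14943980-14944039 (+): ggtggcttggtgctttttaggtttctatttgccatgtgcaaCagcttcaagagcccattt
chr5:15168385-15168444 (+): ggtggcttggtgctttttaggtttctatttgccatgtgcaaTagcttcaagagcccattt
chr5:14944100-14944159 (+): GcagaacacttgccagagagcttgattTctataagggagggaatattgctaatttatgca
chr5:15168505-15168564 (+): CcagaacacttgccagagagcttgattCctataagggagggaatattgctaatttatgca

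On chromosome 7 an F and an R probe of the same interval face each other. Capitals mark the 50 bases in which they are complementary.
chr7:4843443-4843502 (+): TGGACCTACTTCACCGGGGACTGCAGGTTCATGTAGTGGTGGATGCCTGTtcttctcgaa
chr7:4843433-4843492 (-): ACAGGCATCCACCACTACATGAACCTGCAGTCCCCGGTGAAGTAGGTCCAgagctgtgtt

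The last set includes the brightest probe of all these transcripts, the upper one. It lies in 1 interval of chromosome 19 on the minus strand, upstream of the probe of Malat1.
chr19:5802130-5802189 (-): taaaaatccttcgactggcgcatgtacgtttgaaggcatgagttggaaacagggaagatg
chr19:5802267-5802326 (-): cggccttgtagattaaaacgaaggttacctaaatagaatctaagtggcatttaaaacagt
chr19:5802191-5802250 (-): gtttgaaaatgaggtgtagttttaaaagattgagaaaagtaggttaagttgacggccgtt

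The letter in the names was read from the probe positions. Of the 16181 probes, 8171 end in F and 8010 in R. All 16063 with a position lay inside their interval, F probes in the plus and R probes in the minus orientation, and 118 had no position. The median interval was 10676 bp long, with a range of 62 to 7128487 bp. A name had a median of 3 probes (range 1 to 10), and 690 names had 1. In 1067 intervals both letters were present. The intervals were not independent of each other or of genes. Of the 4607 names, 2104 (45.67%) overlapped another name on the same strand, and 413 contained the probe of a gene with a symbol on the same strand, so part of these transcripts are not intergenic by the positions in the files.

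Fewer of these probes gave a signal than probes for known transcripts. A probe was counted as detected in a group when at least 5 of its arrays flagged the spot as both found and well above background. By this limit 3558 (21.99%) were detected in either group, against 59.21% of probes for coding RefSeq transcripts (accessions with NM) and 35.67% of probes for noncoding RefSeq transcripts (NR). Another 9049 probes (55.92%) were detected on none of the 11 arrays. Seen by name, 1994 of 4607 (43.28%) had at least 1 detected probe. Of 3917 names with several probes, 256 had all probes detected, 1571 some and 2090 none.

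The number of detected probes was 3985, 3927, 4061, 4682 and 4398 on the 5 nitrate arrays. On the 6 control arrays the lowest number was 3890, the median 4184 and the highest 5439. The groups overlapped. The highest number belonged to control replicate 5, and the other control arrays ended at 4260. By the limit of 5 arrays, 2795 probes (17.27%) were detected in nitrate and 3381 (20.89%) in control, with 177 in nitrate only and 763 in control only. That limit asked for all arrays of the nitrate group but not of the control group. Without control replicate 5, so that both groups had 5 arrays, 2795 were detected in nitrate and 2817 in control, with 387 and 409 in 1 group only. Detection in either group then stood at 3204 (19.8%).

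**Figure D1:**
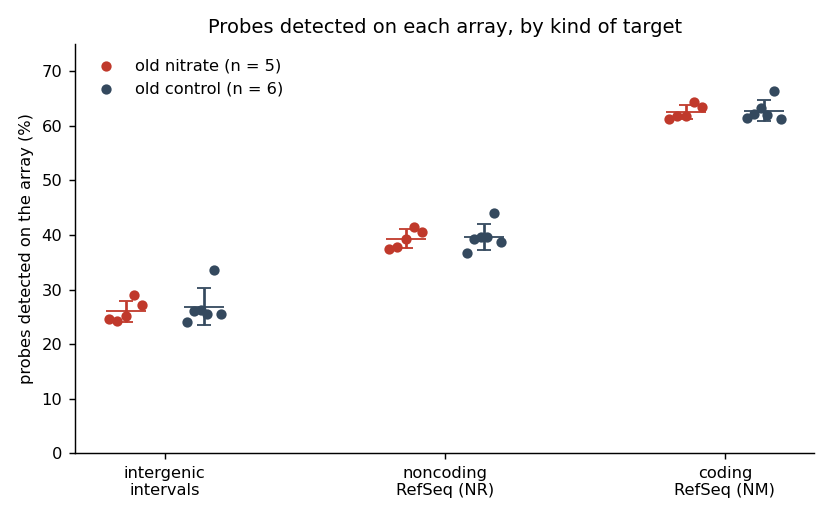
Share of probes detected on each array (%), for intergenic intervals, noncoding RefSeq (NR) and coding RefSeq (NM) transcripts. Each point is 1 array, red for nitrate (n = 5) and dark for control (n = 6), with the mean and SD beside them. The intervals lie between 24.04% and 33.61%, below both other classes on every array, and the uppermost point of each class is control replicate 5.

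Signals were low where present. The median over detected probes was 6.31 log2 units (10th percentile 4.89, 90th percentile 9.66), against 8.81 for coding and 7.78 for noncoding RefSeq probes. Brightness also depends on the oligonucleotide, so these medians describe classes of probes and not numbers of molecules. The median signal of the detected intergenic probes was 6.33 ± 0.04 (SD, n = 5) in nitrate and 6.32 ± 0.05 (SD, n = 6) in control, after quantile normalization, which gives all arrays the same distribution over all probes. 288 probes were above 10 log2 units and 102 above 12.

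Detection went with base composition. Of probes with under 35% G and C, 8.60% were detected, against 39.99% of those with 55% or more. Coding RefSeq probes went from 45.3% to 66.2% over the same limits. Distance to known genes moved with detection as well. Within 1 kb of a gene probe on the same strand 36.7% were detected (206 of 561), and beyond 100 kb 18.4% (950 of 5159). Position within the interval had little bearing, with shares between 20.2% and 25.7% in 5 equal stretches along the strand. The polyadenylation hexamer AATAAA, searched on both strands of the 60 bases, was present on the transcript strand in 3.94% of detected and 3.91% of undetected probes, and on the other strand in 2.87% and 3.07%. Of the 181 probes that end in at least 6 A, such as those with capitals on chromosomes 10 and 11, 30.4% were detected.

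**Figure D2:**
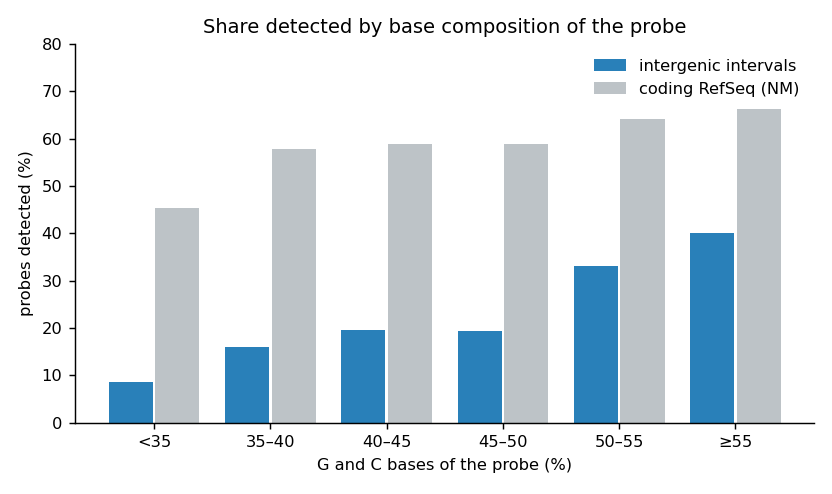
Share of probes detected (%) by the G and C content of the 60-base probe (%), blue for intergenic intervals and gray for coding RefSeq probes. Bars start at 0. The blue bars go from 8.60% to 39.99%, and the gray bar is the taller one in every band.

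F and R probes were detected alike (21.3% and 22.6%). Of the 1067 intervals probed on both strands, 307 had detected probes on both, 218 on F only, 245 on R only and 297 on neither. Between the brightest probes of both strands the median gap was 2.01 log2 units. Among the 307 intervals the strands differed between nitrate and control in the same direction in 147 (47.9%).

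The brightest probe, and 2 of the 6 brightest, lay 6417 and 6554 bp upstream of the probe of Malat1, on its strand. Malat1 is a long nuclear noncoding RNA of most cell types. The gene's own probe on this array was well above background on every array but did not meet the detection limit. All 7 interval-named probes on the same strand within 10 kb of it were detected. Distances are to the gene's probe, 1 of the intervals contains that probe, and whether these probes read RNA of Malat1 was not tested. The highest, at chr19:5802130-5802189, measured 17.47, 17.40, 17.42, 17.33 and 17.27 log2 units on the nitrate arrays, and 17.27 at the lowest, 17.46 at the median and 17.60 at the highest on the control arrays. The groups overlapped fully. Its difference, nitrate minus control, was -0.05 ± 0.07 (SE), with an adjusted P value of 0.786 by limma. The other 6 ranged from 8.55 to 15.87 log2 units in mean signal, with differences between -0.04 and 0.29, and none passed the limits used for a change.

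The other probes among the 6 brightest were at chr14:78924115-78938125_F (mean 16.51), chr6:116092274-116144199_F (16.10), chr12:73838608-73862621_R (15.79) and chr17:17481706-17482457_R (15.64). Their differences lay between -0.03 and 0.09 log2 units, with adjusted P values of 0.618 or more by limma. Those on chromosomes 14, 6 and 12 held 83.3%, 88.3% and 78.3% G and C, against a median of 45% over all interval-named probes. Whether their signals are specific was not tested. None of the 6 brightest probes shared a run of at least 20 bases with a gene probe of the array. Of the dimmer ones within 10 kb of the Malat1 probe, that in chr19:5771425-5848475_R shared 21 bases with it. Such runs were found for 116 detected probes (3.26%), among them 16 of the 102 above 12 log2 units. An example is a probe in chr4:33364774-33364898_R with 36 bases of Cox5b, a subunit of cytochrome c oxidase encoded on another chromosome. Whether its signal (13.93) includes RNA of that gene was not tested.

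Interval-named probes also lay at or beside the probes of 11 other listed noncoding RNA genes. In all, 89 probes were within 10 kb on the same strand of 12 such genes, and 39 (43.8%) were detected. Of the 18 beside Tug1, 10 were detected, at 4.69 to 8.73 log2 units. All 3 beside Neat1, which builds nuclear paraspeckles, were detected (8.42 to 9.16), as were all 4 beside Dleu2 (5.94 to 8.46). Of 15 beside Pvt1, the neighbor of the Myc gene, 6 were detected. None of the 5 probes beside Gas5 and none of the 2 beside Snhg3 was. Some detected interval-named probes share bases with the gene's own probe on the same strand. A probe shares 60 bases with that of Pvt1, another shares 60 with that of Dleu2, and others share 58 and 38 with probes of Tug1. Their signals are no evidence of transcripts separate from these genes. Of these 39 probes, 2 passed the limits for a change given below, which 9.00% of all detected probes passed, and both were lower with nitrate. One was in chr17:12990484-13018375_F beside Airn, an imprinted noncoding RNA (-0.30 log2 units). The other was in chr12:110944403-110988678_F, which contains Mirg, a noncoding RNA of an imprinted cluster (-0.54). This second probe passed the detection filter only through the control group, in which it was brighter, and was not called with normexp.

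The question of the treated groups was which of these transcripts differ between nitrate treated mice and controls. Following the thresholds of the study, a probe was called changed when its P value in limma's test, before any adjustment, was under 0.05 and its fold change exceeded 1.2. Of 3558 detected intergenic probes 310 (8.71%) were called, against 9.00% of all 23633 detected probes. Of the 310, 156 were higher (4.38%, all probes 4.16%) and 154 lower (4.33%, all probes 4.85%). At an unadjusted P value under 0.05 with no limit on the fold, the count was 434 (12.2%), against 14.4% of all probes. The groups did not overlap for 41 probes (1.15%), against 2.75%. After Benjamini-Hochberg adjustment over all detected probes no intergenic probe passed 0.05 in limma's test, and 0.0127% of all probes (3 probes) did. With normexp background correction of the mean signals and an offset of 50, a constant that shrinks differences of dim probes, 76 were called (2.14%, all probes 5.15%), 25 higher and 51 lower. An offset of 16 added to the processed signals gave 238 (6.69%, all probes 7.93%). With the slide as a fixed block 362 were (10.2%, all probes 10.4%), 219 higher and 143 lower. With an offset or normexp the share of the intergenic probes was thus below that of all probes.

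The median difference was 0.006182 log2 units over the intergenic probes and 0.01444 over all probes. By the brightest detected probe of each name, 178 of 1994 names (8.93%) were called, 71 of them lower. Calls were more frequent among dim probes. Below 5 log2 units 63 of 479 (13.2%) were called, and above 10 units 12 of 288 (4.17%), where coding RefSeq probes had 14.7% and 8.09%. Of the 763 probes detected in control only, 86 were called, 61 of them lower, and of the 177 detected in nitrate only, 30, with 25 higher. These probes passed the filter through 1 group alone, so a call with that group brighter is partly set by the filter.

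**Figure D3:**
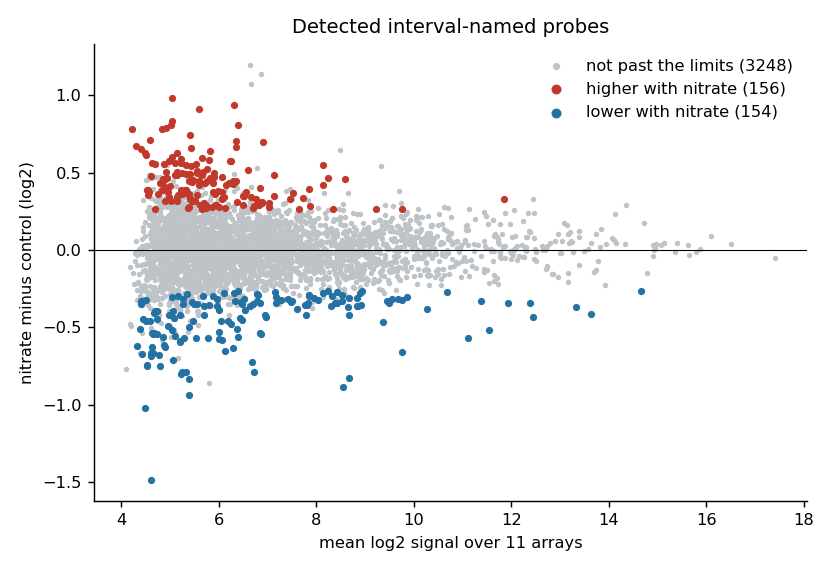
Difference between nitrate and control (log2) against mean log2 signal over 11 arrays for the 3558 detected probes, with 156 called higher in red, 154 called lower in blue and the rest in gray. The called probes lie mostly at the dim end, and 12 of them are above 10 log2 units.

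In chr2:136327645-136341251_F all 3 probes printed above were detected and called lower. At chr2:136340890-136340949 the nitrate arrays measured 7.91, 8.08, 8.07, 8.06 and 8.22 log2 units, and the control arrays 8.51 at the lowest, 8.90 at the median and 9.50 at the highest. All nitrate values lay below all control values. The difference was -0.89 ± 0.18 (SE), with an exact permutation P of 0.00649 (two-sided) and an adjusted P value of 0.101 by limma. As the probe was named for its call without overlap, the permutation P was bound to be small and is no independent support. The next probe downstream gave 7.91, 8.28, 8.29, 8.25 and 8.40 in nitrate against 8.63, 9.01 and 9.62 in control, and differed by -0.83 ± 0.17. The dimmest probe of the 3 gave 5.87, 6.22, 6.77, 6.38 and 6.17 against 6.73, 6.92 and 7.49, which overlapped for 1 nitrate array, and differed by -0.72 ± 0.17, or -0.43 with normexp. Within each of the 3 slides, which held arrays of both groups, the difference of the first of these probes was negative (-1.25, -0.60 and -0.81). The nearest gene probe, for Pak7 on the opposite strand, lay 127492 bp away and was not detected.

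Beside Btg1, a gene that restrains cell proliferation, 3 probes in the pair of intervals printed above were called lower. They lie 13110 to 18449 bp downstream of the Btg1 probe, on its strand. At chr10:96098468-96098527 the nitrate arrays measured 6.72, 6.07, 6.04, 6.12 and 6.60, and the control arrays 6.58, 7.09 and 7.47 at the lowest, the median and the highest. Most nitrate arrays were below every control array, and nitrate replicates 1 and 5 overlapped with the lowest control. The difference was -0.79 ± 0.18 (SE), with an exact permutation P of 0.00866 and an adjusted P value of 0.135 by limma. The other called probes, 1 in each interval, differed by -0.83 ± 0.20 and -0.79 ± 0.18. Both were detected on 4 of 5 nitrate and 5 of 6 control arrays, so they passed the detection filter only through the control group, in which they were brighter. A further probe of chr10:96098058-96098623_F, the most upstream of its 3, differed by -0.17 ± 0.11 and was not called. Btg1 itself was lower by -0.38 log2 units. With normexp the probes of the first interval differed by -0.47 and -0.38. The second interval was added after its values had been seen.

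The interval chr7:4827340-4863315 contains the probe of Isoc2a, which encodes an isochorismatase domain protein, and its F probes follow the gene's own strand. Of 10 F probes 5 were detected and 4 called lower, by -0.31 to -0.36 log2 units, and the gene's own probe was lower by -0.33. At chr7:4843638-4843697 the nitrate arrays measured 8.06, 8.23, 8.21, 8.14 and 8.34, and the control arrays 8.32, 8.55 and 8.70 at the lowest, the median and the highest. The ranges overlapped only in the highest nitrate and the lowest control array. The difference was -0.35 ± 0.08 (SE), with an exact permutation P of 0.00649 and an adjusted P value of 0.138 by limma. This probe was detected on 4 of 5 nitrate and 5 of 6 control arrays, so it passed the detection filter only through the control group, in which it was brighter, and its P values are no independent support for the direction. The other 3 called F probes were detected on all arrays. A probe of the overlapping name chr7:4828654-4843713_F, which shares 59 bases with the F probe printed above, differed by -0.26 ± 0.09. The facing R probe was dim and well above background on 2 of 5 nitrate and 6 of 6 control arrays. It differed by -0.46 ± 0.14, and passed the detection filter only through the control group, in which it was brighter. With normexp this probe (-0.13), 1 of the 4 F probes (-0.26) and that of the overlapping name (-0.23) were no longer called.

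**Figure D4:**
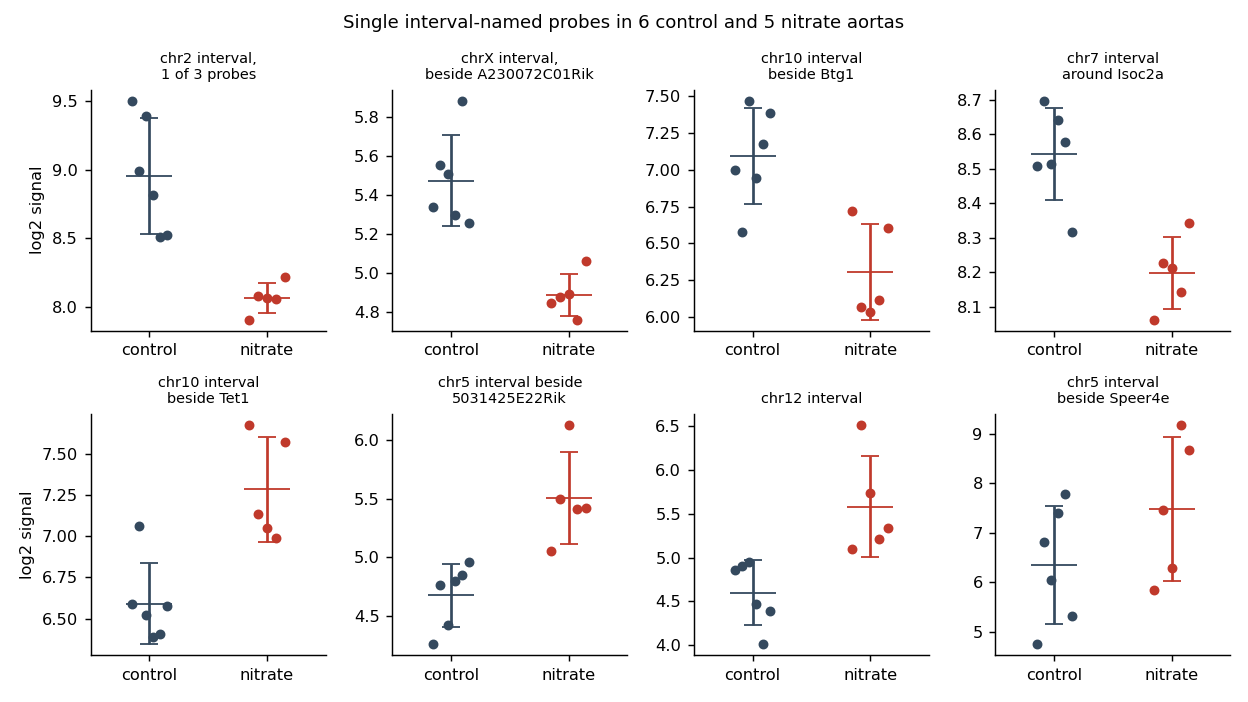
Log2 signal of 8 interval-named probes in each control (dark, n = 6) and nitrate (red, n = 5) aorta, with mean and SD. The vertical axes differ between panels and do not start at 0. The upper row shows falls and the lower row rises, and the last panel, beside Speer4e, shows a probe whose values spread widely in both groups and did not pass the limits.

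Other named falls without overlap between the groups were single probes at low signal. In chrX:20555593-20591971_F, which contains A230072C01Rik, the nitrate arrays measured 4.85, 4.88, 4.89, 4.76 and 5.06 and the control arrays 5.26, 5.42 and 5.89. The difference was -0.59 ± 0.11 (SE), with an exact permutation P of 0.00216, the smallest that divisions of the mice can give, and an adjusted P value of 0.094 by limma. The probe was named because its groups did not overlap, which by itself keeps this permutation P small. A probe in chr3:36280098-36347798_R, 27285 bp from Anxa5, differed by -0.62 ± 0.15 and was well above background on 3 of 5 nitrate arrays. The probe in chr12:110944403-110988678_F beside Mirg was well above background on 4 of 5 nitrate arrays, while Mirg's own probe differed by -0.06. A probe in chr1:88339354-88345004_F was not well above background on any nitrate array and was on 5 of 6 control arrays, so on the processed signals it was at least 1.502-fold lower with nitrate (adjusted P value 0.111 by limma). This bound does not hold with normexp, where the difference was smaller. The fold of this bound sets the control mean against the lowest signals well above background on the nitrate arrays. The probes on chromosomes 3, 12 and 1 passed the detection filter only through the control group, in which they were brighter. With normexp none of these 4 falls was called, with differences of -0.21, -0.16, -0.17 and -0.18 in the order given.

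Among rises, the interval chr10:62267317-62269871_R had all 3 of its probes called. It lies 6725 to 6846 bp downstream of the probe of Tet1, on the same strand. Tet1 oxidizes 5-methylcytosine in DNA. At chr10:62267662-62267721 the nitrate arrays measured 7.68, 7.13, 7.05, 6.99 and 7.58, and the control arrays 6.39, 6.55 and 7.06 at the lowest, the median and the highest. Control replicate 2 lay within the nitrate range and the other 5 control arrays below it. The difference was 0.70 ± 0.16 (SE), with an exact permutation P of 0.00866 and an adjusted P value of 0.130 by limma. The other probes of the interval differed by 0.64 ± 0.16 and 0.66 ± 0.17, and the probe of Tet1 itself by 0.62. Whether the probes of the interval read RNA of Tet1 was not tested. Within the 3 slides the first of these probes differed by 0.58, 0.57 and 0.82. With normexp the 3 differed by 0.47, 0.33 and 0.26.

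The smallest P value of all intergenic probes was that at chr11:6428407-6428466 in chr11:6421951-6429173_F, printed above and named after its value was seen. The nitrate arrays measured 5.78, 6.05, 5.61, 5.56 and 5.64, and the control arrays 5.09, 5.15 and 5.35 at the lowest, the median and the highest, so the groups did not overlap. The difference was 0.54 ± 0.09 (SE), with an exact permutation P of 0.00216 and an adjusted P value of 0.0878 by limma. It was the only detected one of the F probes in this interval.

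Of the probes with internal repeats, beside 5031425E22Rik, the one in chr5:22887983-22939658_R measured 5.06, 5.50, 6.13, 5.42 and 5.42 in nitrate and 4.26, 4.78 and 4.96 in control, and differed by 0.83 ± 0.18. The other, in chr5:22890322-22939119_R, differed by 0.78 ± 0.29, and by 0.51 without control replicate 1. The gene's own probe differed by -0.02. Another rise without overlap was a probe in chr12:7530807-7866572_R, with 5.10, 6.52, 5.74, 5.22 and 5.34 in nitrate and 4.01, 4.66 and 4.95 in control, a difference of 0.98 ± 0.25. It was the only one of 3 probes of its name that was detected, on 5 nitrate and 4 control arrays, and the nearest gene probe, for Apob, lay 481758 bp away. Other named rises without overlap were in chr15:85299777-85300166_R (0.79 ± 0.24), chr1:33965074-34060850_R (0.58 ± 0.14) and chrX:34354757-34357195_R (0.56 ± 0.12). The probe on chromosome 15 was likewise detected on 5 nitrate and 4 control arrays, so both passed the filter only through the group in which they were brighter. With normexp the probes on chromosomes 15 and X and the second repeat probe were no longer called (0.21, 0.21 and 0.23), and those on chromosomes 12 and 1 and the first repeat probe were (0.32, 0.31 and 0.31). For these rises the adjusted P values lay between 0.120 and 0.276 by limma.

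Where an interval held several probes, their directions often differed. In 405 names with at least 3 detected probes, all pointed the same way in 196 (48.4%), against 55.1% of 421 coding RefSeq names. Among names with exactly 2 detected probes 288 of 455 (63.3%) had the same sign, against 72.2% of coding names. Of the 266 names with a called probe, 30 had 2 or more, which is 3.49% of the 860 names with at least 2 detected probes, against 4.56% of coding RefSeq names and 4.34% of all names. In 29 of the 30 all called probes had the same direction, 23 lower and 6 higher, as in 129 of 130 coding names, 82 lower and 47 higher. Of the 30 names, 2 overlap each other. Besides those described, all 3 probes were called lower in chr6:122741562-122743423_R (mean -0.47) and chr5:122048289-122068947_R (-0.37). A probe of the first of these shares 36 bases with the probe of Uck1, a gene on another chromosome. In chr8:129102060-129109035_R, near Irf2bp2, 3 of 4 were (-0.56), and in chr16:34524589-34573439_R 4 of 5 (-0.36). Higher were 4 of 8 detected probes in chrX:90997595-91009570_R (0.29). Probes of 1 name share a target and are not replicates.

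Probes close to a known gene on the same strand differed as the gene did more often than distant ones. Under 1 kb, 108 of 150 pairs (72.0%) had the same sign, and Pearson's r between the 2 differences was 0.494. Some interval-named probes share most of their bases with a gene probe of the same strand and chromosome, such as 60 with Man1a2 and 59 with Tnrc18. Where both probes of a pair read the same sequence, agreement is built in. How many of the 150 pairs share bases was not counted. The share was 51.2% at 1 to 10 kb (r = 0.259), 53.6% at 10 to 100 kb (r = 0.0975) and 50.5% beyond 100 kb (r = -0.00298). These are descriptions across probes, which share arrays and, in part, genes, and are not independent. Of called probes, 9 of 10 had the sign of the gene within 1 kb, 25 of 40 (62.5%) at 1 to 10 kb, 74 of 109 (67.89%) at 10 to 100 kb and 21 of 48 (43.75%) beyond. Within 10 kb of a gene that was itself called lay 8 called probes, 3 beside Tet1 and 5 beside Isoc2a, all with the sign of the gene.

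**Figure D5:**
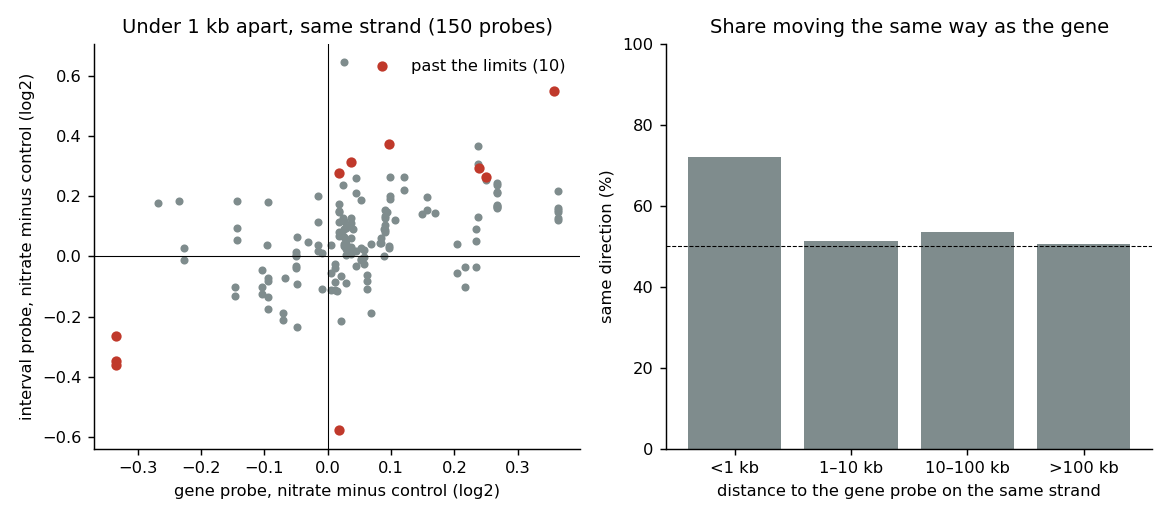
Left, difference between nitrate and control (log2) of each interval-named probe against that of the gene probe under 1 kb away on the same strand (150 probes, the 10 called in red). Right, share of probes with the sign of the gene (%) by distance, with a dashed line at 50%. The share is 72.0% under 1 kb and between 50.5% and 53.6% further away. Pairs whose probes share bases were not left out.

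The probes with the widest spread over all mice were the repeated sequences beside the Speer genes, a family known from testis. At chr5:14943980-14944039 the nitrate arrays measured 5.84, 7.47, 6.29, 9.18 and 8.68, and the control arrays 4.76, 6.43 and 7.79 at the lowest, the median and the highest. Single mice of the same group differed by more than 3 log2 units, and the groups overlapped. The difference of 1.14 ± 0.69 (SE) had an exact permutation P of 0.188. Its copy in chr5:15146475-15170100_F measured 5.79, 7.28, 5.75, 8.90 and 8.54 in nitrate, in nearly the same order of mice, and differed by 1.07 ± 0.70. The differences changed sign between slides (0.87, -0.07 and 2.02 for the first of them).

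The cell type markers of the array bear on all these comparisons, because in bulk tissue fewer cells of a type and less RNA per cell cannot be told apart. All 8 smooth muscle genes were detected, and 1 was called, higher. All 9 adipocyte genes were detected and below 0 in difference, and 5 were called lower. Their summed signal was 256600 to 336000 in nitrate and 331300 to 462800 in control. All 6 brown adipocyte genes were detected and 1 was called lower, with sums of 113600 to 264800 and 185900 to 315200. Striated muscle genes were detected for 7 of 8 and none was called, with sums of 2420 to 55350 and 1767 to 35330. No endothelial (6 detected), macrophage (4), lymphocyte (1) or nerve (3) gene was called. The part of adipose or muscle tissue in the differences of the intergenic transcripts was not tested. Of 14 detected circadian clock genes 11 were called, 7 higher and 4 lower. Of 22 interval-named probes whose nearest gene is a clock gene within 100 kb, 5 were detected and none was called, where 9.00% of all detected probes were. Among 31 listed noncoding RNA genes with a name of their own, 18 were detected and 2 were called lower, Rmrp (-0.49) and Terc (-0.30). The control arrays shared a slide column that was free of nitrate arrays, and position and treatment cannot be told apart.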

How the data were processed

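Per the file headers, Feature Extraction 10.7.1.1 wrote the spot intensities the authors deposited, together with other columns (quality flags, names, sequences and mm9 positions). A log2 table was deposited as well. Set against these intensities, it proved to be quantile normalized with each probe centered on its median, and it served as an alternative.

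Control and outlier-flagged spots were dropped, processed signals below 1 were set to 1, and log2 values were averaged per probe and quantile normalized over 11 arrays. Detected probes (23633) were fitted with lmFit and eBayes (R 4.3.3, limma 3.58.1). For single probes the mice were also regrouped in every possible way (exact permutation test, two-sided), where 0.00216 is the smallest P value. Probes named for a call were chosen on these same arrays, so their P values are no independent support. The fit was tested on simulated data. Each array is 1 mouse, and 11 arrays limit the precision.

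Members, gene lists and the rule for named probes were chosen with earlier results of these data known. By that rule, named were the 6 largest rises and 6 largest falls called without overlap, the 6 brightest and 3 most variable probes, called probes within 10 kb of a called gene, 4 intervals with several called probes, and the 3 probes on either side of the fold limit. Nearest genes are symbols of a RefSeq table found among the array's own mm9 probe positions. Sequences are those of the files. Alternatives covered detection, scaling, background, prior variance, slide, replicate number and left-out arrays.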

Additional observations from a re-analysis of the deposited data

Results flagged for a closer look

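In 8 of 70 groups of arrays tested, 1 array stood apart from the rest of its group by Dixon's criterion, where chance alone gives about 1 in 20, or 3.5. The gap to the nearest array divided by the group's range is given for each. Control replicate 5 had 5439 detected interval-named probes against 3890 to 4260 on the other control arrays (0.761). It was also the lowest control in chr1:33965074-34060850_R (5.44 against 5.92 to 6.20 log2 units, 0.627) and in chr15:85299777-85300166_R (3.38 against 4.63 to 5.16, 0.7). Both are rises described above. Nitrate replicate 2 was low in chr1:88339354-88345004_F (3.69 against 4.16 to 4.29, 0.78), and nitrate replicate 4 in chr12:110944403-110988678_F (4.15 against 4.37 to 4.44, 0.76). Control replicate 1 was low in chr5:22890322-22939119_R (3.14 against 4.47 to 4.96, 0.731), and control replicate 6 in the bright interval chr17:17481706-17482457_R (15.56 against 15.65 to 15.69, 0.686). Control replicate 2 was high in chr10:62267317-62269871_R beside Tet1 (7.06 against 6.39 to 6.59, 0.7).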

How the results depend on the processing

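The count of called intergenic probes (310) was 175 among probes detected on all arrays (7.33%, all probes 8.50%), 76 with normexp background correction and an offset of 50 (2.14%, 5.15%), 779 with no detection filter (4.81%, 5.79%) and 178 by the brightest probe of each name. Leaving out 1 array at a time gave 232 (without nitrate replicate 2) to 365 (without nitrate replicate 4) called probes, no adjusted call, median differences of -0.01345 to 0.024049 log2 units and median signals of 6.2861 to 6.3146. The share called higher was 50.3%, against 32.9% with normexp, 60.5% with slide as a fixed block and 60.2% with the replicate block. With 1 array left out it ranged from 42.1% (without control replicate 5) to 59.4% (without control replicate 6). After adjustment 1 probe was called with no detection filter and 1 with slide as a random block, against 0 otherwise. The median signal (6.31) was 6.1833 with a limit of 4 nitrate arrays, 6.1167 with the well above background flag alone, 6.8755 for probes detected on all arrays, -1.4785 with 75th percentile scaling (relative to each array's percentile), 7.1764 with normexp, 6.5793 with an offset of 16 and 2.7729 with no detection filter. The detection count recomputed without control replicate 5, chosen after seeing the data, was 3204 with 275 called. Of 24 named differences, 23 kept their direction and stayed under an unadjusted P value of 0.05 in limma under every alternative that could be fitted. These 24 were named for their calls on the same arrays, which favors such stability. Probes named only for their place at the fold limit are not among them. With normexp 10 of the 24 fell under the fold limit and were no longer called, and the probe of chr7:4828654-4843713_F did so with 75th percentile scaling (-0.25), with an offset of 16 (-0.26) and without any of 5 arrays (-0.22 to -0.25). The exception, a probe of chr7:4827340-4863315_F, had -0.28 without nitrate replicate 1 and -0.27 without nitrate replicate 3. The replicate numbers only name the mice. With the replicate block 327 probes were called (9.19%, all probes 10.3%), and same-numbered arrays had correlations of deviations between -0.137 and 0.18, with 1 of 5 nitrate arrays closest to its own number. Of probes below 5 log2 units 13.2% were called, against 4.17% above 10.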
